A study of Homo sapiens with 12 samples.

Results

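NF-kB is a family of dimeric transcription factors that turn on inflammatory and survival genes. The 10 genes described here encode its subunits, inhibitors and feedback regulators: NFKB1, NFKB2, RELA, RELB, REL, NFKBIA, NFKBIE, TNFAIP3, TRAF1 and BIRC3. They were picked by symbol out of 52859 genes in the deposited count table, with earlier results of these data known. How many of the 10 changed, set beside all tested genes, is therefore not independent evidence. All 10 of the 10 passed the filter on low counts, as did 16051 genes in all. RNA came from MDA-MB-231 cells, an established line of human triple-negative breast cancer, transfected with a locked nucleic acid (LNA). An LNA is a stabilised oligonucleotide that pairs with a complementary RNA. The 4 groups of 3 libraries were a control LNA, mtAsn-1 and mtAsn-2, which are 2 LNAs aimed at the mitochondrial asparagine tRNA, and mtLys, aimed at the mitochondrial lysine tRNA. All 12 libraries shared the cell line, the LNA dose of 20 nM, the lipid reagent and harvest on day 2, so each control library is a transfected one too. Whether replicates were separate cultures is not stated in the labels, so the spread behind each p-value is that of these libraries and could be technical only.

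Library totals lay between 17978825 and 37708993 counts. The targeted tRNA genes did not check the labels, since TRNN (asparagine) had 1 to 6 reads and TRNK (lysine) 111 to 325 reads in a library, from a kit (TruSeq RNA) that as a rule selects polyadenylated RNA. The line's markers were present, with VIM at 2954 CPM or more and AXL at 803 CPM or more (CPM, counts scaled to a common library size). ESR1 and PGR, the hormone receptor genes, stayed at or under 0.286 CPM, while ERBB2 lay between 89.4 and 119.6 CPM. The summed level of 5 leukocyte markers was 2.83 to 3.996 CPM in control, 3.89 to 4.29 under mtAsn-1, 3.37 to 3.90 under mtAsn-2 and 4.63 to 5.40 under mtLys. Of these 5, CD14 made up most, at 2.08 to 3.95 CPM. LYZ lay between 0.531 and 1.35 CPM and was called higher under mtLys (log2 fold change 0.96 ± 0.245, edgeR adjusted p = 0.00185). ITGAM had 13, 13 and 7 reads in the mtAsn-2 libraries, against 2 in each control library. It had 4, 10 and 2 reads in the mtLys libraries and 3, 1 and 0 in the mtAsn-1 libraries. These are raw reads from libraries of unequal depth. The pan-leukocyte gene PTPRC was at most 0.343 CPM, and CD3E had at most 1 read in any library. The part of these markers in the results was not tested.

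In resting cells NF-kB dimers are kept in the cytoplasm by inhibitors of the IkB family, and a kinase complex frees them by marking the inhibitor for destruction. RELA, RELB and REL carry the domain that activates transcription, whereas NFKB1 and NFKB2 encode precursors that are cut to give the DNA-binding partners. The canonical route acts mainly through RELA and NFKB1, and the alternative route through RELB and NFKB2. Many genes of the pathway are its own targets, which closes feedback loops, and breast cancer cells of the mesenchymal-like type are known for a raised basal activity. RNA levels alone do not measure how much of the protein is in the nucleus.

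NF-kB dimers bind short DNA elements of the kappaB type, and matches to them in the members' promoters are printed because all 10 genes moved one way under one of the LNAs. A match describes the letters only and is no evidence of binding. RefSeq promoter windows (build GRCh38.p14, 250 bases before to 50 after a transcript start) were found for 8 of the 10 genes and made 14 windows. RELB and NFKBIE had no entry. Matches were sought on both strands to the kappaB consensus and to a narrower form (GGG, any 2 bases, then TTTCC), each 10 bases long, and every narrow match in these windows was also a consensus match. Of the 14 windows, 7 held the consensus, and they belonged to 6 of the 8 genes. Among all 35116 windows of the same length, 11.3% held the consensus and 1.91% the narrow form. By gene, 13.3% of 27305 genes held the consensus and 2.33% the narrow form, which 6 of the 8 genes held here. Because many genes of the pathway are its own targets, these shares are a description of the chosen genes and no test. The sites follow, 5′ to 3′ in the direction of the gene, with the matched bases in capitals.
NFKB1, chr4:102501300-102501329, plus strand: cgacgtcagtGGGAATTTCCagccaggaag
NFKB2, site A, chr10:102394462-102394490, plus strand: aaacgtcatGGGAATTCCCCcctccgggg
NFKB2, site B, chr10:102394490-102394519, plus strand: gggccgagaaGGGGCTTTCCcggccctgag
NFKB2, site C, chr10:102395519-102395548, plus strand: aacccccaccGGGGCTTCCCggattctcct
NFKB2, site D, chr10:102395674-102395703, plus strand: tggtattttcGGGACTTTCCtaagctgctc
REL, chr2:60881518-60881546, plus strand: gtcagccgcGGGAAATTCCCctcccgcca
NFKBIA, chr14:35404811-35404840, minus strand: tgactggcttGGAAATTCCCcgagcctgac
TNFAIP3, chr6:137867188-137867217, plus strand: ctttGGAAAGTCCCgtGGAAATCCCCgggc
BIRC3, distal site, chr11:102317275-102317304, plus strand: tttgggtcatGGAAATCCCCgagtgggttt
BIRC3, proximal site, chr11:102317339-102317368, plus strand: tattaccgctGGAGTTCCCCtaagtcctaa
The TNFAIP3 sites lay side by side, the outer one starting 67 bases before the transcript start. The BIRC3 sites began 199 and 135 bases before it, the NFKBIA site 81 and the NFKB1 site 49. In NFKB2 and REL, a pair of matches 1 base apart on opposite strands gave the longer run of capitals. The NFKB1, NFKB2 and REL sites overlap exons of the deposited annotation. None of the 3 TRAF1 windows or the 2 RELA windows held either form, which says only that these letters are absent from those windows.

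All 10 genes were higher under mtAsn-2 than in control, by 1.16-fold (RELA) to 3.30-fold (TRAF1). Against that, 24.1% of all tested genes were called higher in the same comparison (edgeR quasi-likelihood test, Benjamini-Hochberg adjusted p under 0.05, as for every adjusted p below unless another tool is named). In either direction, 51.1% were called. The median log2 fold change over the 10 was 0.58, beside -0.01 over all tested genes. Under mtAsn-1, 2 of the 10 were higher and 4 lower, beside 24.3% and 24.2% of all tested genes. Under mtLys, 1 was higher and 2 lower, beside 24.6% and 23.9%, and the mtLys libraries lay above all control libraries for 28.3% of all tested genes. No member was called lower under mtAsn-2 by edgeR, 0 at an unadjusted p under 0.05, and 0 by DESeq2. In bulk RNA, fewer cells of a kind and less RNA per cell cannot be told apart. These comparisons share the control libraries.

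**Figure D1:**
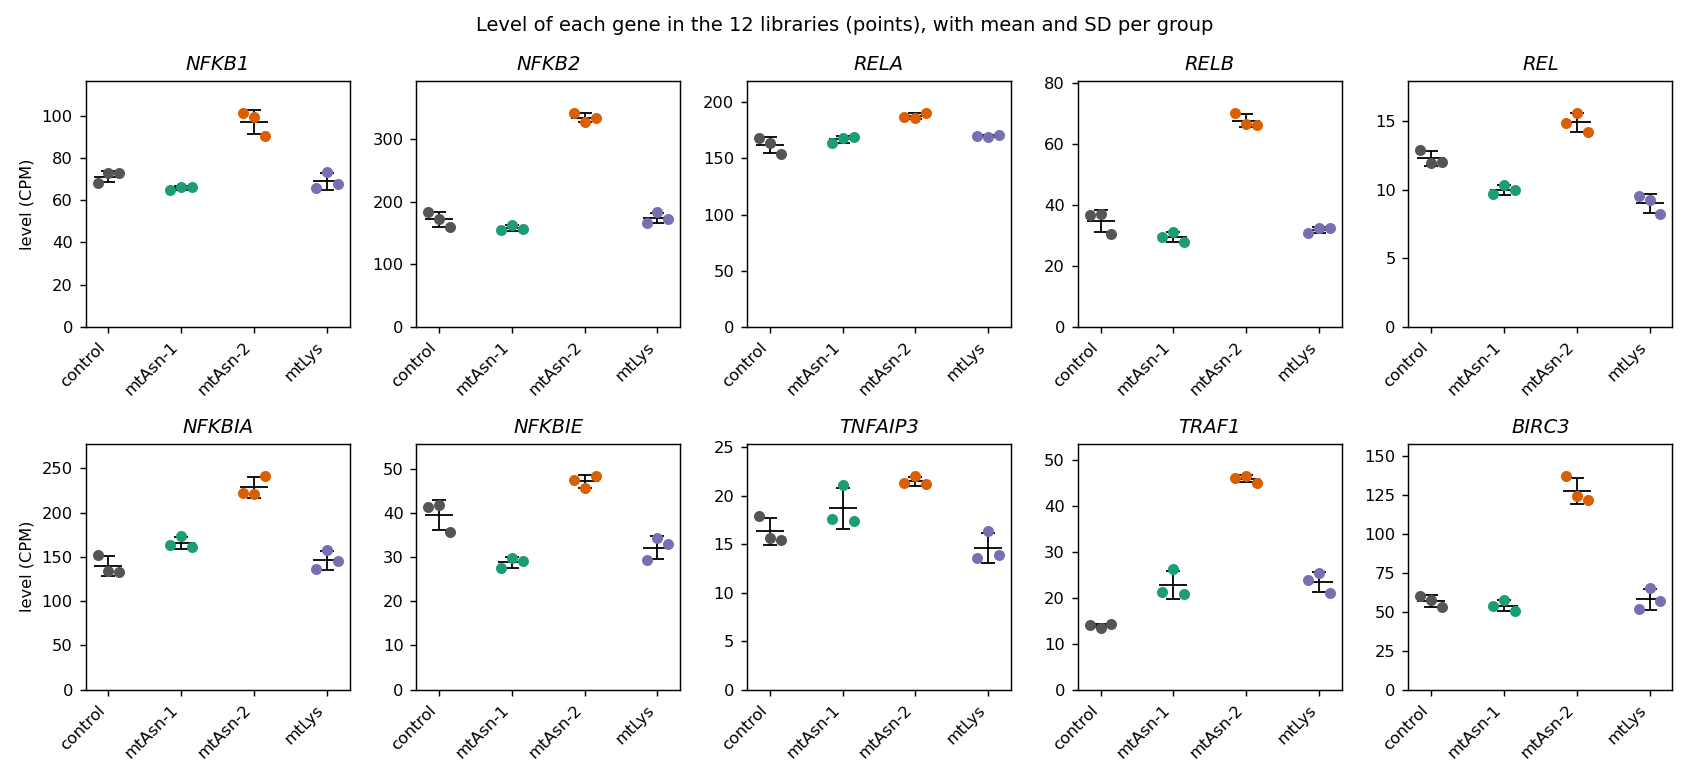
Level of each gene in CPM (vertical axis, from 0) in the 12 libraries, with points for single libraries and black bars for the mean and SD of each group. The mtAsn-2 libraries are the highest for all 10 genes, from a narrow margin in TNFAIP3 (21.2 against 21.1 CPM in mtAsn-1 replicate 2) to a wide one in NFKB2 (328 against 184 CPM).

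The subunit genes are taken first, beginning with the alternative route. NFKB2 (chromosome 10, 102394110 to 102402529, plus strand, hg38), which encodes a precursor with its own inhibitory repeats, stood at 184, 173 and 160.1 CPM in control and at 342, 328 and 334 CPM under mtAsn-2. Under mtAsn-1 its level was 155.5, 164 and 157 CPM, and under mtLys 167, 183 and 173 CPM. The mtAsn-2 libraries were well clear of the other 9, while the remaining groups lay close together. The rise under mtAsn-2 was 1.94-fold (log2 fold change 0.95 ± 0.0455, SE, adjusted p = 4.21e-16). Under mtLys the log2 difference from control was 0.02 ± 0.0458 (adjusted p = 0.812). A small fall under mtAsn-1 (-0.12 ± 0.0466, adjusted p = 0.0324) came with overlapping libraries. That call did not hold when control replicate 1 (adjusted p = 0.237) or 2 (0.0721) was left out, without mtAsn-1 replicate 1 (0.11) or 3 (0.0951), and in the compared groups alone (0.0644).

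RELB (chromosome 19, 45001449 to 45038194, plus strand), the usual partner of the processed NFKB2 protein, had 36.7, 36.9 and 30.5 CPM in control and 70.0, 66.4 and 66.2 CPM under mtAsn-2. Its values were 29.6, 31.0 and 27.9 CPM under mtAsn-1, and 30.7, 32.3 and 32.3 CPM under mtLys. The mtAsn-2 libraries stood apart, and the highest mtAsn-1 library overlapped the lowest control library. The rise under mtAsn-2 was 1.93-fold (0.95 ± 0.0585, adjusted p = 1.09e-13), and the fall under mtAsn-1 was -0.25 ± 0.065 (adjusted p = 0.00217). The difference under mtLys did not pass (-0.14 ± 0.0617, adjusted p = 0.0613), although it did without control replicate 3 (0.00404) or mtAsn-1 replicate 2 (0.0498).

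Of the canonical pair, NFKB1 (chromosome 4, 102501266 to 102617302, plus strand) encodes the precursor of the most common DNA-binding partner. It stood at 68.0, 72.7 and 72.9 CPM in control, 64.9, 66.3 and 66.4 under mtAsn-1, 101, 99.2 and 90.4 under mtAsn-2, and 66.0, 73.5 and 67.4 under mtLys. Its rise under mtAsn-2 was 1.36-fold (0.45 ± 0.05, adjusted p = 1.59e-08). All mtAsn-1 libraries lay below all control libraries, but the difference did not pass (-0.11 ± 0.0524, adjusted p = 0.0816, and 0.0419 without control replicate 1). Libraries below control without overlap were found for 26.9% of all tested genes in that comparison. Under mtLys NFKB1 did not pass either (-0.04 ± 0.0508, adjusted p = 0.499).

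RELA (chromosome 11, 65653596 to 65662972, minus strand), the main activating subunit, was the steadiest of the family. Control libraries had 168, 164 and 154 CPM, mtAsn-1 163.5, 168 and 169, mtAsn-2 187, 186 and 190.2, and mtLys 169.5, 169 and 170.5. Even so the mtAsn-2 libraries did not overlap any other, and the rise of 1.16-fold passed (0.21 ± 0.0389, adjusted p = 4.12e-05). The log2 fold changes under mtAsn-1 (0.04 ± 0.0396, adjusted p = 0.385) and mtLys (0.07 ± 0.039, adjusted p = 0.158) did not pass.

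REL (chromosome 2, 60881521 to 60931612, plus strand), a subunit best known from lymphoid cells, was the only one of the 5 called lower under mtLys. It had 12.9, 11.9 and 11.97 CPM in control, 9.66, 10.35 and 9.95 under mtAsn-1, 14.9, 15.6 and 14.2 under mtAsn-2, and 9.54, 9.23 and 8.23 under mtLys. Control libraries therefore sat between mtAsn-2 on one side and both other LNAs on the other, with no overlap. Among all tested genes, 27.1% had all mtAsn-2 libraries above control. All libraries lay below control for 26.9% under mtAsn-1 and for 27.9% under mtLys. REL rose under mtAsn-2 (0.28 ± 0.0765, adjusted p = 0.00322) and fell under mtAsn-1 (-0.30 ± 0.0854, adjusted p = 0.00472) and mtLys (-0.44 ± 0.0814, adjusted p = 5.35e-05).

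Per length, RELA was the most abundant subunit transcript and REL the least. In control the levels were 62.8 ± 2.71 CPM per kilobase of exon for RELA (SD, n = 3, as below), 37.2 ± 2.61 for NFKB2, 15.96 ± 0.618 for NFKB1, 15.3 ± 1.60 for RELB and 1.08 ± 0.0474 for REL. NFKB1 and RELB did not differ beyond their spread. Under mtAsn-2, NFKB2 reached 72.1 ± 1.55 and RELA 72.8 ± 0.910, which did not differ beyond their spread. RELB, at 29.7 ± 0.950, then stood above NFKB1 at 21.7 ± 1.28.

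As a share of the summed level of the 5 transcripts, RELA made up 47.5% ± 0.276 in control, 50.7% ± 0.699 under mtAsn-1, 49.3% ± 1.12 under mtLys and 36.8% ± 0.747 under mtAsn-2. NFKB2 made up 28.1% ± 0.738 in control and 36.5% ± 0.295 under mtAsn-2, and RELB 11.5% ± 0.707 and 15.02% ± 0.258. The NFKB2 and RELB shares under mtAsn-2 lay above those of all other libraries, and the RELA share below. NFKB1 kept a share of 11.0% to 12.1% in the group means. The ratio of RELB to RELA was 0.243 ± 0.0163 in control, 0.201 ± 0.0121 under mtAsn-1, 0.212 ± 0.00613 under mtLys and 0.408 ± 0.0152 under mtAsn-2. These shares and ratios are descriptions of the same counts and were given no test.

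**Figure D2:**
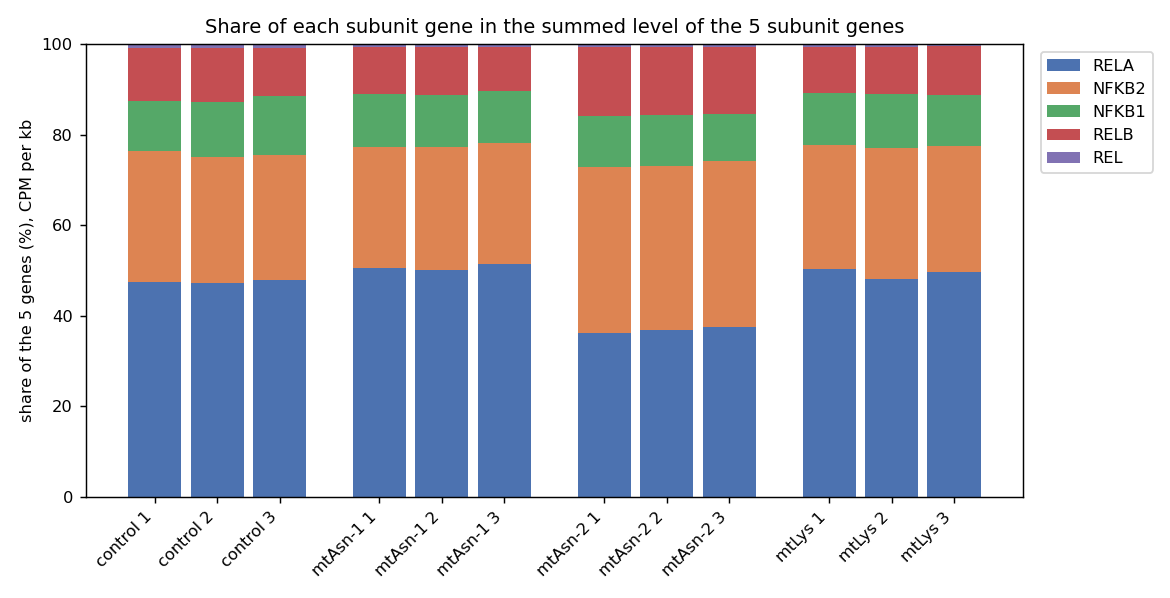
Share of each subunit gene (percent, vertical axis) in the summed level of the 5 subunit genes per kilobase, 1 bar per library and 1 colour per gene. In the mtAsn-2 libraries the RELA share is 36.1% to 37.6% and the NFKB2 share 36.2% to 36.7%, whereas RELA holds at least 47.3% in every other library.

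The IkB inhibitors came next. Both were called higher under mtAsn-2, and only under mtAsn-1 were they called in opposite directions. NFKBIA (chromosome 14, 35401510 to 35404754, minus strand) encodes the inhibitor that is destroyed and remade within a single round of signalling and whose gene is a classical target of the pathway. It had 153, 133.5 and 133 CPM in control, 164, 174 and 161 under mtAsn-1, 223, 221 and 241.5 under mtAsn-2, and 136, 157 and 146 under mtLys. NFKBIA was higher under mtAsn-2 (1.63-fold, 0.71 ± 0.0562, adjusted p = 5.17e-10) and, to a lesser degree, under mtAsn-1 (1.19-fold, 0.25 ± 0.0573, adjusted p = 0.00108), with no overlap with control in either. Under mtLys the libraries overlapped and it did not pass (0.07 ± 0.0567, adjusted p = 0.36), except without control replicate 1 (0.0462).

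NFKBIE (chromosome 6, 44258166 to 44265551, minus strand), a slower-acting inhibitor of the same family, moved in 2 directions. Its values were 41.2, 41.8 and 35.7 CPM in control, 27.5, 29.9 and 29.0 under mtAsn-1, 47.5, 45.6 and 48.4 under mtAsn-2, and 29.3, 34.2 and 33.0 under mtLys. As for REL, control lay between mtAsn-2 and the other LNAs without overlap. NFKBIE rose under mtAsn-2 (0.24 ± 0.0607, adjusted p = 0.00123) and fell under mtAsn-1 (-0.47 ± 0.0662, adjusted p = 1.17e-06) and mtLys (-0.31 ± 0.0627, adjusted p = 0.00016). The ratio of NFKBIA to NFKBIE per length was 5.30 ± 0.450 in control, 8.63 ± 0.307 under mtAsn-1, 7.24 ± 0.229 under mtAsn-2 and 6.82 ± 0.178 under mtLys, so that it was higher in every LNA library than in every control library. That ratio was likewise not tested.

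Of the feedback regulators that act on the signalling complexes, TRAF1 and BIRC3 held the largest changes of the 10 genes under mtAsn-2 against control. TRAF1 (chromosome 9, 120902393 to 120929173, minus strand) encodes an adaptor of TNF receptor complexes and was the only member higher under all 3 LNAs. Its level was 14.1, 13.5 and 14.3 CPM in control, 21.2, 26.3 and 20.7 under mtAsn-1, 46.0, 46.5 and 45.1 under mtAsn-2, and 23.9, 25.4 and 21.0 under mtLys. The libraries formed 3 steps, with control lowest, mtAsn-1 and mtLys overlapping in the middle and mtAsn-2 on top. TRAF1 rose 3.30-fold under mtAsn-2 (1.72 ± 0.0753, adjusted p = 1.48e-16), 1.62-fold under mtAsn-1 (0.70 ± 0.0837, adjusted p = 1e-07) and 1.69-fold under mtLys (0.76 ± 0.0796, adjusted p = 8.97e-09). By log2 fold change under mtAsn-2 it ranked 102 from the top of 16051 genes.

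BIRC3 (chromosome 11, 102317373 to 102339403, plus strand) encodes a ubiquitin ligase that binds TRAF adaptors, limits the alternative route and restrains cell death. It stood at 60.1, 57.5 and 53.0 CPM in control, 54.0, 57.8 and 50.3 under mtAsn-1, 137, 124 and 121 under mtAsn-2, and 52.0, 65.2 and 56.7 under mtLys. The mtAsn-2 libraries were apart and the other 9 mixed. BIRC3 rose 2.24-fold under mtAsn-2 (1.16 ± 0.0743, adjusted p = 5.73e-10) and ranked 298 from the top. Under mtAsn-1 (-0.08 ± 0.0796, adjusted p = 0.411) and mtLys (0.02 ± 0.0767, adjusted p = 0.828) it did not pass.

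TNFAIP3 (chromosome 6, 137866317 to 137883312, plus strand) encodes a ubiquitin-editing enzyme that shuts down signalling to the kinase complex. It had 17.9, 15.6 and 15.4 CPM in control, 17.6, 21.1 and 17.4 under mtAsn-1, 21.3, 22.1 and 21.2 under mtAsn-2, and 13.6, 16.4 and 13.8 under mtLys. Its rise under mtAsn-2 was 1.32-fold (0.40 ± 0.0805, adjusted p = 0.00015). Under mtAsn-1 it did not pass (0.18 ± 0.086, adjusted p = 0.0806) but did without control replicate 1 (0.0264) or mtAsn-1 replicate 3 (0.0465), and under mtLys it did not pass (-0.16 ± 0.0841, adjusted p = 0.11) but did without mtLys replicate 2 (0.0221). TNFAIP3 is the one member whose exons overlap a gene on the opposite strand, WAKMAR2, which had 0 to 4 reads in a library.

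**Figure D3:**
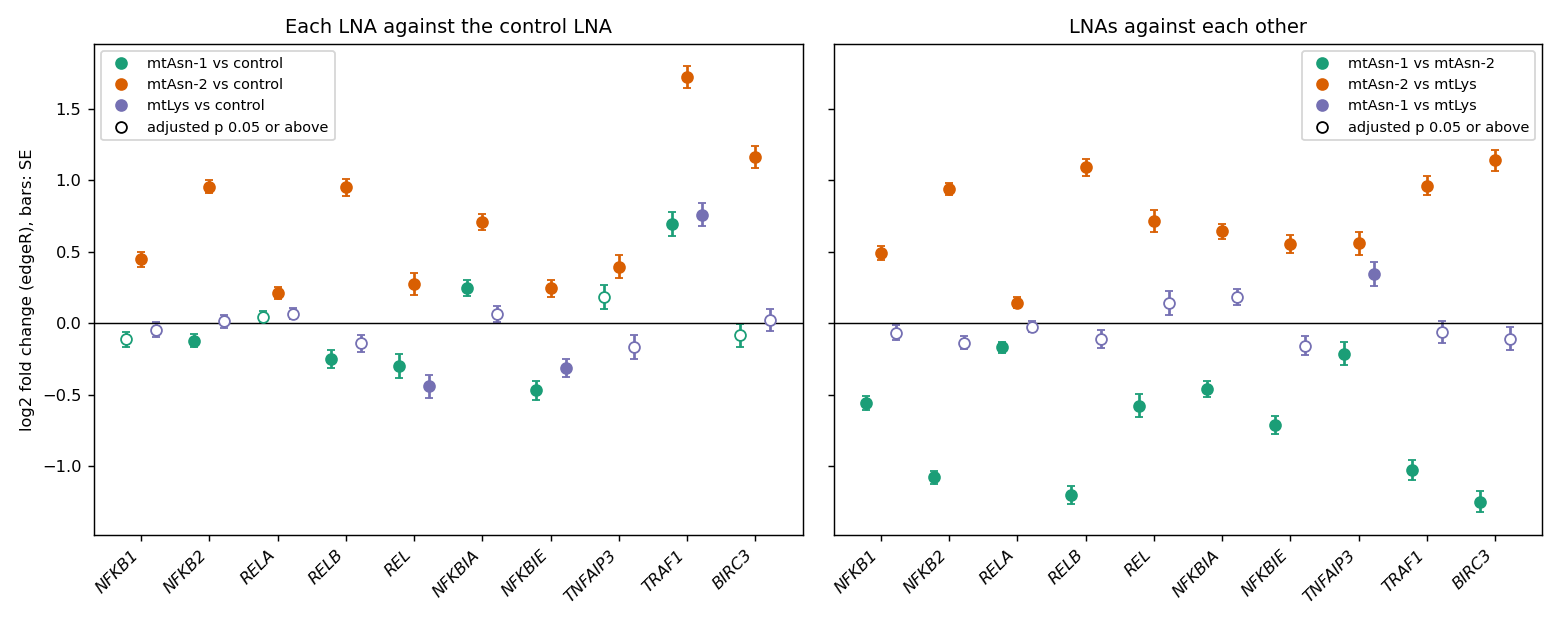
Log2 fold change of each gene (vertical axis, points, with SE bars) for each LNA against control on the left and for the LNAs against each other on the right, with open points where the adjusted p is 0.05 or above. Under mtAsn-2 all points against control are above 0, from 0.21 (RELA) to 1.72 (TRAF1), and in the comparison of mtAsn-1 against mtLys only TNFAIP3 is filled.

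The direct comparison of the 2 asparagine LNAs asks whether oligonucleotides against one tRNA have one effect. All 10 genes were lower under mtAsn-1 than under mtAsn-2, beside 21.9% of all tested genes (25.3% had all mtAsn-1 libraries below), and none was higher (0 by edgeR, 0 at an unadjusted p under 0.05, 0 by DESeq2). The levels under mtAsn-2 were 2.37-fold those under mtAsn-1 for BIRC3 (log2 fold change of mtAsn-1 over mtAsn-2 -1.25 ± 0.0757, adjusted p = 3.57e-10), 2.30-fold for RELB (-1.20 ± 0.0609, 1.77e-15), 2.11-fold for NFKB2 (-1.08 ± 0.046, 4.82e-17) and 2.04-fold for TRAF1 (-1.03 ± 0.072, 3.42e-12). NFKBIE (1.64-fold), REL (1.49-fold), NFKB1 (1.47-fold) and NFKBIA (1.38-fold) followed, with adjusted p of 1.03e-06 or below. RELA differed by 1.12-fold (adjusted p = 0.000775).

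TNFAIP3 differed least firmly between these LNAs (-0.21 ± 0.0809, adjusted p = 0.0325). Its call was lost without mtAsn-1 replicate 1 (adjusted p = 0.13) or 3 (0.178), without mtAsn-2 replicate 1 (0.0532) or 2 (0.084), and with DESeq2 (0.0538), which called 9 of the 10 lower.

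Between mtAsn-2 and mtLys the picture was alike. All 10 genes were higher under mtAsn-2, beside 22.9% of all tested genes called higher and 25.7% lower. All mtAsn-2 libraries lay above the mtLys libraries for 27.5% of all tested genes and below for 29.1%. The rises of the members ran from 1.11-fold (RELA, adjusted p = 0.00268) to 2.20-fold (BIRC3, 1.14 ± 0.0729, adjusted p = 6.35e-10). RELB (2.13-fold, adjusted p = 3.73e-15), TRAF1 (1.95-fold, 3.27e-12) and NFKB2 (1.92-fold, 4.57e-16) came next. REL was 1.65-fold higher under mtAsn-2 (adjusted p = 8.01e-09). Over all groups, the 3 mtAsn-2 libraries were above all 9 others for 10 of the 10 genes, beside 11.5% of all tested genes.

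Between mtAsn-1 and mtLys, whose targets differ, 1 of the 10 genes was higher and 0 lower by edgeR, beside 2.12% and 3.14% of all tested genes (5.26% in either direction). At an unadjusted p under 0.05 these were 2 and 2, and DESeq2 called 2 and 0. The gene was TNFAIP3, 1.27-fold higher under mtAsn-1 (0.35 ± 0.0845, adjusted p = 0.0135), and the call was lost without mtAsn-1 replicate 2 (0.0961) or mtLys replicate 1 (0.0747) or 3 (0.0725). NFKBIA (0.18 ± 0.0567, adjusted p = 0.0662) passed with DESeq2 (0.0496), in the compared groups alone (0.0327), without a filter (0.00529) and without control replicate 1 (0.0229) or mtLys replicate 2 (0.0225). NFKB2 (-0.14 ± 0.0462, adjusted p = 0.0855) passed without a filter (0.0355). For TRAF1, the member raised by both, the log2 difference was -0.06 ± 0.076 (adjusted p = 0.725). Values that miss the threshold do not show that the 2 LNAs act alike on these genes. The count of all genes called in this comparison was the least steady, from 120 to 395 higher and from 275 to 527 lower over the libraries left out in turn. Leaving out mtLys replicate 2 gave 120 and 284, mtLys replicate 3 gave 142 and 275, mtAsn-1 replicate 2 gave 145 higher, and mtAsn-1 replicate 1 gave 328 lower.

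The genes whose profile over the 12 libraries lay nearest to the members that changed at least 2-fold were sought among all tested genes, by the root mean square difference of log2 CPM relative to control. Nearest to TRAF1 was IL6, a cytokine gene, at 0.135 log2 units, followed by LOC100128885 and LOC101929018 at 0.194 each. IL6 rose under mtAsn-2 by 1.64 log2 units, against 1.72 for TRAF1. BIRC3 was nearest to NFKB2 (0.12 log2 units) and RELB (0.161), followed by IL22RA1, an interleukin receptor subunit gene (0.208). These distances describe likeness over libraries that share their groups and depth. IL6 overlaps an antisense gene, and strand is not stated to have been kept.

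Upstream of the members, 31 of 32 listed genes for receptors, adaptors and kinases could be tested, and RNF31 was listed at 0 in every library. Under mtAsn-1, 10 were higher and 11 lower (median log2 fold change -0.04), under mtAsn-2, 11 and 11 (0.03), and under mtLys, 11 and 10 (0.04), beside medians of -0.0035, -0.0071 and -5e-04 over all tested genes. Each count was 32.3% to 35.5% of the 31, against 23.9% to 27% of all tested genes called in one direction. Without control replicate 1 or mtAsn-2 replicate 2, 7 were lower under mtAsn-2, and without mtLys replicate 2, 7 were higher under mtLys.

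Genes of this list did not all rise with the members under mtAsn-2. MYD88, the adaptor of Toll-like and interleukin-1 receptors, fell with each LNA, from 92.4 ± 4.52 CPM in control to 59.0 ± 6.40 under mtAsn-1 (-0.64 ± 0.0573, adjusted p = 4.44e-10), 63.7 ± 0.527 under mtAsn-2 (-0.54 ± 0.0552, 4.47e-09) and 67.9 ± 2.40 under mtLys (-0.45 ± 0.0552, 1.59e-07). IKBKB, a catalytic subunit of the kinase complex, rose from 59.3 ± 4.21 to 94.0 ± 5.80 CPM under mtAsn-1 (0.67 ± 0.0544, 5.92e-11) and 98.9 ± 0.714 under mtLys (0.74 ± 0.0532, 4.48e-12). It also rose under mtAsn-2 (0.43 ± 0.0535, 1.11e-07), and its exons overlap an antisense gene. TNFRSF1A, the main TNF receptor gene, fell from 419.7 ± 5.88 to 295 ± 10.6 CPM under mtAsn-2 (-0.51 ± 0.0425, 5.79e-11), and less under mtAsn-1 (-0.17 ± 0.0425, 0.00172) and mtLys (-0.15 ± 0.0423, 0.00438). TLR3, a receptor for double-stranded RNA, rose from 13.02 ± 0.0247 to 22.2 ± 1.151 CPM under mtAsn-2 (0.77 ± 0.0733, 8.13e-10). It fell under mtAsn-1 (-0.21 ± 0.0838, 0.0436) and did not pass under mtLys (-0.10 ± 0.0783, 0.292).

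A further 4 genes named from this list were each called in 1 direction under all 3 LNAs, with values given for mtAsn-1, mtAsn-2 and mtLys in that order. IRAK1, a kinase below MYD88, rose by 0.39 ± 0.038 (adjusted p = 1.74e-09), 0.35 ± 0.0378 (9.78e-09) and 0.29 ± 0.0379 (2.49e-07) on the log2 scale. IL1RAP, a subunit of the interleukin-1 receptor, rose by 0.52 ± 0.077 (2.24e-06), 0.19 ± 0.0752 (0.0402) and 0.58 ± 0.0735 (1.79e-07). BIRC2, the close relative of BIRC3, had log2 fold changes of -0.37 ± 0.048 (2.91e-07), -0.12 ± 0.0467 (0.0346) and -0.32 ± 0.0471 (2.5e-06). TRAF6, an adaptor ligase, had -0.48 ± 0.0701 (2.05e-06), -0.33 ± 0.0656 (9.55e-05) and -0.55 ± 0.067 (9.62e-08).

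In a list of further IkB-family genes and brakes of the pathway, not all of which act only as inhibitors, calls went in both directions. Of 21 listed, 20 could be tested, and NFKBIB was listed at 0 in every library. Under mtAsn-1, 5 were higher and 7 lower (median log2 fold change -0.12), under mtAsn-2, 6 and 6 (-0.01), and under mtLys, 5 and 7 (-0.12). These counts were 25.0% to 35.0% of the 20, near the 23.9% to 27% of all tested genes called in one direction. TNIP2, a partner of the TNFAIP3 protein, rose under all 3 LNAs, from 40.9 ± 1.68 CPM in control to 75.0 ± 3.63 under mtAsn-1 (0.87 ± 0.0548, adjusted p = 3.27e-13), 88.4 ± 6.02 under mtAsn-2 (1.12 ± 0.0531, 4.06e-16) and 73.1 ± 1.56 under mtLys (0.84 ± 0.0536, 3.95e-13). TOLLIP, a dampener of Toll-like receptor signalling, fell with all 3, by -0.35 ± 0.0419 (7.52e-08), -0.37 ± 0.0411 (1.71e-08) and -0.28 ± 0.041 (1.52e-06) in the same order.

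Among the remaining brakes, with values again for mtAsn-1, mtAsn-2 and mtLys, TNIP1 rose by 0.32 ± 0.0376 (adjusted p = 6.38e-08), 0.37 ± 0.0374 (3.06e-09) and 0.17 ± 0.0375 (0.000391) on the log2 scale. ITCH fell under each, with -0.30 ± 0.0411 (6.22e-07), -0.17 ± 0.04 (0.000685) and -0.27 ± 0.0402 (2.88e-06), as did TAX1BP1, with -0.15 ± 0.0413 (0.00306), -0.22 ± 0.0408 (5.22e-05) and -0.12 ± 0.0408 (0.0166). COMMD1 changed in opposite directions, up under mtAsn-1 (0.71 ± 0.0797, 2.57e-08) and mtLys (0.41 ± 0.078, 7.29e-05) and down under mtAsn-2 (-0.29 ± 0.0823, 0.00394). SPATA2 fell under mtAsn-1 (-0.33 ± 0.0581, 2.54e-05) and mtLys (-0.47 ± 0.0564, 7.54e-08) and did not pass under mtAsn-2 (-0.02 ± 0.0548, 0.779). The exons of COMMD1, ITCH and TAX1BP1 overlap genes on the opposite strand.

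Target genes outside the 10 members rose more often than they fell with each LNA. Of 34 listed, 27 could be tested. Under mtAsn-1, 17 were higher and 3 lower (median log2 fold change 0.39), under mtAsn-2, 19 and 4 (0.55), and under mtLys, 14 and 4 (0.31). The higher calls were 63.0%, 70.4% and 51.9% of the 27 in that order, beside 24.3%, 24.1% and 24.6% of all tested genes. Without mtAsn-1 replicate 2, 5 were lower under mtAsn-1, and without mtAsn-2 replicate 2, 2 were lower under mtAsn-2. Under all 3 LNAs 11 of the 27 were higher, namely CSF2, CXCL1, CXCL8, IL1B, IL6, LIF, PLAU, PLAUR, PTGS2, PTX3 and TNFRSF9. Of these, the exons of IL6, LIF and PLAU overlap genes on the opposite strand, and CXCL1 is close in sequence to CXCL2 and CXCL3. The 11 are 40.7% of the 27, beside 10.8% of all tested genes (1730 of 16051), and the 3 comparisons share the control libraries. The list was drawn up with earlier results of these data known, so its direction is not independent evidence.

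PTX3, a secreted pattern-recognition protein gene, rose from 19.7 ± 2.82 CPM in control to 37.0 ± 2.43 under mtAsn-1 (0.89 ± 0.0719, adjusted p = 6.47e-11), 46.0 ± 0.874 under mtAsn-2 (1.20 ± 0.0682, 2.52e-14) and 35.7 ± 0.694 under mtLys (0.84 ± 0.0695, 9.21e-11). PTGS2, the cyclooxygenase gene, rose by 1.55 ± 0.168 (1.23e-08), 1.88 ± 0.154 (4.23e-11) and 0.90 ± 0.171 (7.29e-05) in the same order, and PLAUR, the urokinase receptor gene, by 0.80 ± 0.0665 (1.43e-08), 0.45 ± 0.0658 (1.55e-05) and 0.74 ± 0.0656 (3.51e-08). The chemokine gene CXCL2, uncertain because its sequence is close to CXCL1 and CXCL3, rose under mtAsn-1 (0.90 ± 0.167, 6.74e-05) and mtAsn-2 (2.12 ± 0.14, 2.28e-12) and did not pass under mtLys (0.21 ± 0.169, 0.321).

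A further 3 targets were called lower under mtAsn-1 and mtLys and did not pass under mtAsn-2. IRF1, an interferon-response factor gene, had log2 fold changes of -0.59 ± 0.0521 (adjusted p = 3.1e-10) under mtAsn-1, -0.29 ± 0.0498 (1.62e-05) under mtLys and 0.11 ± 0.049 (0.0747) under mtAsn-2. GADD45B, a stress-response gene, had -0.41 ± 0.0567 (7.94e-07), -0.48 ± 0.0551 (3.95e-08) and -0.09 ± 0.0541 (0.174) in that order, and TNFAIP2 -0.28 ± 0.0506 (5.93e-05), -0.45 ± 0.0502 (5.9e-08) and -0.06 ± 0.0498 (0.365). CFLAR, which encodes a brake on caspase activation, fell under mtAsn-2 (-0.41 ± 0.0549, 3.72e-07), rose under mtLys (0.15 ± 0.0532, 0.0189) and did not pass under mtAsn-1 (0.11 ± 0.0554, 0.114). SOD2, the mitochondrial superoxide dismutase gene, fell under mtAsn-2 (-0.26 ± 0.0564, 0.000475) and mtLys (-0.30 ± 0.0566, 0.000108) and did not pass under mtAsn-1 (-0.11 ± 0.0574, 0.138). CFLAR and SOD2 overlap genes on the opposite strand. VCAM1, an adhesion molecule gene chosen after its values were seen, was below the filter, with 21, 16 and 8 reads in the mtAsn-2 libraries and 0 to 5 reads in each of the other 9. The remaining untested targets had few reads or none. TNF and LTB were listed at 0 in every library. The most reads in any library were 1 for CCL2, 3 for IER3, 4 for BCL2A1 and 5 for MMP9.

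**Figure D4:**
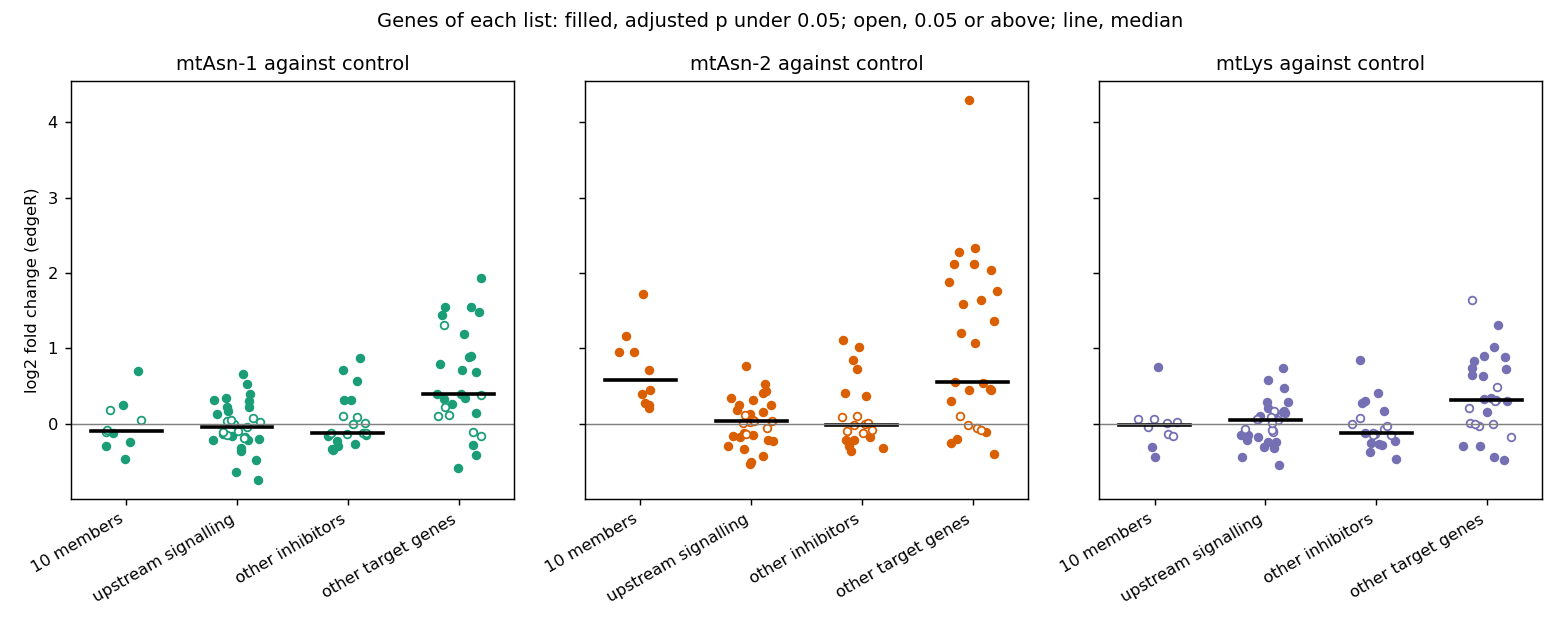
Log2 fold change against control (vertical axis) of each tested gene of the 10 members and of the 3 other lists, 1 panel per LNA, with filled points for adjusted p under 0.05, open points for the rest and a line at each median. The median of the members is 0.58 under mtAsn-2, -0.10 under mtAsn-1 and -0.01 under mtLys, while that of the target genes is above 0 in all 3 panels (0.39, 0.55 and 0.31 for mtAsn-1, mtAsn-2 and mtLys).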

How the data were processed

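The authors deposited raw counts of reads per gene, 1 column per library, with summed exon lengths in bases. Per the submitters' processing notes the tools were FastQC, STAR 2.6.0a, featureCounts and DESeq2 with build hg38, without their roles. For strandedness and for reads with several matches, the choice made is not given in the sources used here. Of 52897 lines, 38 broken ones were left out (12 genes and their fragments, at most 0.141% of a library), none of them a member. The tests came from edgeR 4.0.16 (R 4.3.3). Low genes were removed once over all 12 libraries by filterByExpr, with the groups given. Its minimum count was 10, scaled to library size, and its minimum total was 15. Libraries were scaled by TMM, and all 12 entered 1 robust quasi-likelihood fit, with Benjamini-Hochberg adjusted p under 0.05 over 16051 genes per comparison. The common biological coefficient of variation was 0.0421. SE was worked back from F (size of the log2 fold change divided by its root), and SD is over 3 libraries. An exact permutation test of 3 against 3 cannot go below 0.1 and was not used. Per-length levels divide CPM by exon length.

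Named genes were the members, up to 2 rises and 2 falls of smallest adjusted p per list and comparison with control, and the 3 nearest profiles (log2 CPM, prior count 2) of members changed at least 2-fold. Members and lists were chosen with earlier results of these data known. The alternatives tried were DESeq2 1.42.0, RLE scaling, leaving the filter out, a stricter filter (1 CPM in each library of a group, mean log2 CPM 2), a replicate block, the compared groups alone and leaving out each library. Counts of all genes under them were added after seeing the data. The fit was tested on simulated counts for mtAsn-2 against control, where 16 of 197 calls were false. That share is above the adjusted p threshold of 0.05. Only 197 of 15657 genes were called there, against 51.1% of the tested genes in the data. The simulation was therefore unlike the data, and its share of false calls need not hold for them. Recovery was 82% for changes of 1.25-fold and 98% for changes of 2-fold. A further leukocyte marker is not reported here. No replicate pair agreed within sampling noise. Plots used Python 3.11.15 and matplotlib 3.10.9.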

Additional observations from a re-analysis of the deposited data

How the results depend on the processing

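Of the 60 member comparisons (10 genes, 6 comparisons), 60 kept their direction and side of the threshold with RLE factors, the stricter filter and the replicate block, and 58 with DESeq2, without a filter and in the compared groups alone. The counts of members called with mtAsn-2 against control (10 higher) and against mtLys (10 higher) held under every alternative run, and 9 to 10 were lower with mtAsn-1 than with mtAsn-2. For mtAsn-1 against mtLys, where 1 was higher, 2 were higher with DESeq2, without a filter and in the compared groups alone, and 1 was lower without a filter. Leaving out libraries gave 0 to 2 higher there, and 1 to 2 higher with mtLys against control. Over libraries left out, log2 fold changes that crossed 0 were those of NFKB2 with mtLys (-0.0337 to 0.0648), BIRC3 with mtLys (-0.0666 to 0.1013) and TRAF1 in mtAsn-1 against mtLys (-0.1684 to 0.0062), none of them called, and the cause was not tested. With the replicate block, TRAF1 with mtAsn-2 had a log2 fold change of 1.73 (1.72 without it). The replicate numbers did not pair the libraries: 0 of 18 same-numbered pairs correlated above 0.1 (-0.0991 to 0.0417), and 2 of 12 libraries correlated best with their own number. The members at the lowest CPM in control, TRAF1, REL and TNFAIP3, had the largest SE with mtAsn-2 (0.0753, 0.0765 and 0.0805).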
